A study of Homo sapiens with 19 samples.

Results

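Each whole-cell RNA library of K562, an established human erythroleukaemia line grown without treatment, was set against a rebuilt one. The rebuilt library was a mixture of the cytoplasm, nuclear wash and nucleus libraries of the same column prefix, with weights that were not allowed below 0. Whole cell, cytoplasm, nuclear wash and nucleus each had 4 libraries depleted of ribosomal RNA, and the column prefix 1A stands for replicate 1, 1B for 2, 2B for 3 and 2C for 4. These 16 of the 19 libraries of the series were used, and the 3 wash libraries prepared without depletion were not used here. All of them carried synthetic yeast RNAs as spike-ins, and whether each replicate was a culture of its own is not stated. The p-values therefore rest on the spread of 4 libraries, which may be technical in part. Of 58051 human genes, 15940 passed the filter on low counts over exons and 17015 passed it over whole gene bodies, and all of these were tested. A ratio is the whole-cell level over the rebuilt level, in CPM, counts scaled to a common library size, so a positive log2 ratio means that the transcript took a larger share of the whole-cell library than the fractions return.

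Fractionation first breaks the outer membrane and collects the cytoplasm, then rinses the remaining nuclei, and what stays behind is the nuclear RNA. Mature mRNA is mostly cytoplasmic, unspliced RNA and long noncoding RNAs such as MALAT1 are mostly nuclear, and membranes of the endoplasmic reticulum and mitochondria can stay with the nuclei or leave with the rinse. If nothing is lost and nothing is degraded, some weighted sum of the fractions equals the whole cell for every transcript. A transcript that no such sum can return is therefore of interest, and the comparison asks which transcripts those are. CPM values are shares of a library, so a change in a few abundant RNAs moves all others, and loss of a transcript from a fraction cannot be told apart from an unequal yield of the library steps.

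Libraries held 2616547 to 6115517 exon counts in whole cells, 5561300 to 7955415 in cytoplasm, 3377669 to 7165198 in the wash and 1373755 to 2643131 in the nucleus, so the nucleus was the shallowest term of the mixture. Gene-body counts ranged from 4274729 to 11384115 over the 16 libraries. The 8 markers of K562 summed to 2800 to 3380 CPM in whole cells, of which the fetal globin HBG2 and the transferrin receptor TFRC took the most. The 16 markers of lymphoid, myeloid, epithelial, fibroblast and endothelial cells summed to 415 to 509 CPM in whole cells and 486 to 600 CPM rebuilt. The highest of the 16 were epithelial, with KRT8 at 235 to 302 CPM, KRT18 at 82.3 to 114 CPM and EPCAM at 51.2 to 60.2 CPM in whole cells. Of the 16, 7 were under 1 CPM in every whole-cell library, CD2 was at 0, and 0 of the 7 that were tested were called.

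The cytoplasm was the largest term of the exon mixture. Its fitted weight was 0.529, 0.548, 0.543 and 0.543 in prefixes 1A, 1B, 2B and 2C, a mean of 0.541 ± 0.00837 (SD, n = 4). The nucleus had weights of 0.247, 0.284, 0.325 and 0.261, a mean of 0.279 ± 0.0342. The nuclear wash had weights of 0.228, 0.133, 0.072 and 0.233, a mean of 0.166 ± 0.0778. In this main fit the cytoplasm was thus nearly constant over the prefixes. The wash ranged over more than the other fractions and was high in 1A and 2C and low in 1B and 2B. The weights of this fit summed to between 0.94 and 1.04 without being held to a sum. Other fits differed. By least squares the cytoplasm had 0.573, 0.668, 0.574 and 0.509 and the wash 0.22, 0.137, 0.116 and 0.133. Poisson weights of the wash were 0.215, 0.153, 0.0872 and 0.138.

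Over gene bodies, which count introns too, the nucleus became the largest term with a mean weight of 0.525 ± 0.0657, against 0.335 ± 0.0236 for the cytoplasm and 0.126 ± 0.0861 for the wash. The wash weight again split the prefixes, with 0.208 and 0.186 in 1A and 2C and 0.0868 and 0.0244 in 1B and 2B. The spike-ins gave another set of exon weights, 0.504 ± 0.0703 for cytoplasm, 0.0587 ± 0.0124 for the wash and 0.213 ± 0.0163 for the nucleus. These summed to 0.868, 0.832, 0.75 and 0.653 in the 4 prefixes, and with them the typical gene stood 0.36 ± 0.20 (SD, n = 4) log2 units above its rebuilt level. The amount of spike-in per cell or per RNA is not stated, so this sum cannot be read as a recovery, and the ratios below are relative to the typical gene.

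**Figure D1:**
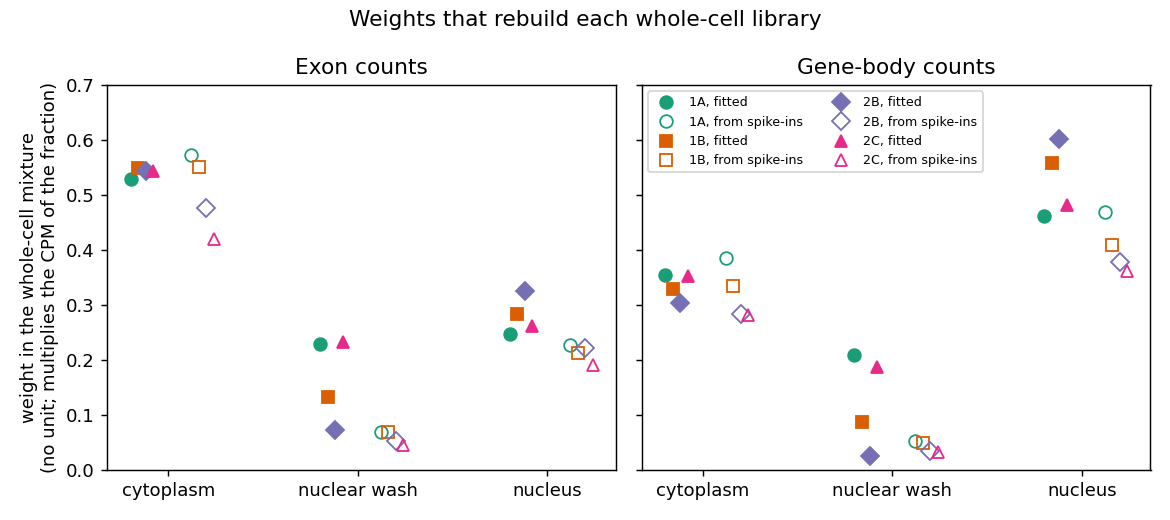
Weights (vertical axis, no unit) that rebuild each whole-cell library from its cytoplasm, nuclear wash and nucleus libraries, fitted to all genes (filled) or implied by the yeast spike-ins (open), with one symbol per prefix, for exon counts (left) and gene-body counts (right). The fitted exon weight of cytoplasm lies between 0.529 and 0.548 in all prefixes, while that of the wash ranges from 0.072 to 0.233.

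The mixture returned most of the whole cell. Observed and rebuilt exon levels had a Spearman correlation between 0.977 and 0.988 across the 15940 genes, given as a description since genes are not replicates. The median absolute log2 ratio was 0.249, 0.187, 0.205 and 0.226 in prefixes 1A, 1B, 2B and 2C, against 0.251 to 0.337 between whole-cell libraries of different prefixes. Each whole-cell library was therefore closer to its own rebuilt mixture, which was fitted to it, than to the other whole-cell libraries. Within 1.5-fold of the rebuilt level lay 79.2, 87.3, 88.7 and 82.9% of genes, and within 2-fold 90.6, 95.7, 96.7 and 93.5%.

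Landmark RNAs of the nucleus and the cytoplasm had fitted levels somewhat below the rebuilt ones and were not called. Some other nuclear RNAs, named further on, were called above their rebuilt level. MALAT1, an abundant noncoding transcript that sits in speckles, had 21288, 22201, 25479 and 21613 CPM in whole cells of prefixes 1A, 1B, 2B and 2C, against 25489, 28906, 24133 and 21623 CPM rebuilt. Those rebuilt values came from 80801, 89662, 69618 and 73638 CPM in the nucleus and 3072, 2922, 2231 and 2774 CPM in the cytoplasm. The log2 ratio was -0.13 ± 0.08 (SE, edgeR adjusted p = 0.574), and the 2 sets of values overlapped. NEAT1, the scaffold RNA of paraspeckles, had 755 ± 119 CPM in whole cells and 774 ± 102 CPM rebuilt (SD, n = 4), a log2 ratio of -0.04 ± 0.07 (SE, edgeR adjusted p = 0.905). GAPDH, a glycolytic enzyme with a mostly cytoplasmic mRNA, had 972 ± 142 CPM in whole cells and 1084 ± 73.5 CPM rebuilt, a log2 ratio of -0.15 ± 0.08 (SE, edgeR adjusted p = 0.556). None of the 10 landmark genes was called, and among them the largest ratios were -0.38 ± 0.10 (SE, edgeR adjusted p = 0.109) for the fetal globin HBG1 and -0.23 ± 0.07 (SE, edgeR adjusted p = 0.147) for the cytoskeletal actin ACTB. All 10 had a fitted log2 ratio below 0, and ACTB, HSPA5, MT-CO1 and HBG1 lay below in all 4 prefixes. The ratio of HBG1 was as large as that of NDUFB9, at -0.37, which was called. The lack of a call thus does not show equality with the rebuilt level.

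**Figure D2:**
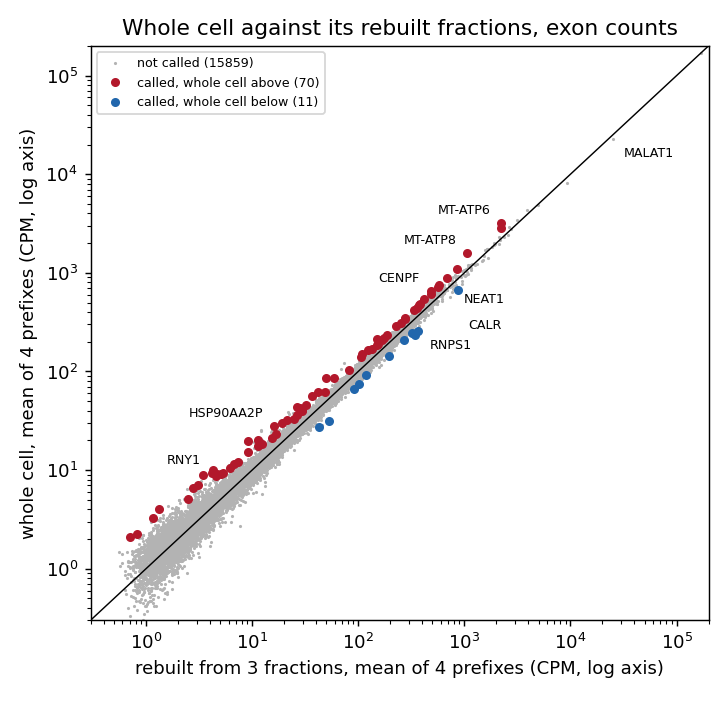
Mean exon CPM over 4 prefixes in whole cells (vertical, log axis) against the level rebuilt from the fractions (horizontal, log axis) for all 15940 tested genes, with called genes in colour and the line of equality. MALAT1 and NEAT1 lie close to the line, and 70 called genes lie above it and 11 below.

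A gene was called when edgeR's quasi-likelihood test gave an adjusted p under 0.05 and all 4 prefixes lay on the same side of the rebuilt level. By that rule 70 genes were above the rebuilt level, 0.439% of those tested, and 11 were below it, 0.069%, or 81 in all (0.508%). At an unadjusted p under 0.05 there were 1780 genes. With no test, 1554 genes (9.75%) lay above in all 4 prefixes and 1424 (8.93%) below. No gene lay 2-fold above its rebuilt level in all 4 prefixes, and 1 gene lay 2-fold below. The fitted log2 ratios of called genes were at least 0.3 in size, and reached 1.772 above and -0.724 below.

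The calls depended on the test and on single prefixes. Limma on log2(CPM + 0.5) called 0 genes in either direction, with 952 at an unadjusted p under 0.05, and DESeq2 called 117 above and 32 below. Without prefix 1B edgeR called 0 genes, with 1222 at an unadjusted p under 0.05. Without 1A it called 40 above and 10 below, without 2C it called 6 above and 0 below, and without 2B it called 211 above and 98 below. The values of every prefix are given below for that reason.

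Among the 13 mRNAs made inside mitochondria, only the pair for subunits of ATP synthase was called, and both lay above the rebuilt level. MT-ATP8 and MT-ATP6 are read from a single bicistronic transcript in which their reading frames overlap. The sequence of MT-ATP8 is shown because this overlap bears on how reads can be assigned. MT-ATP8 lies at chrM:8366-8572 on the plus strand (GRCh38, GENCODE release 29), and the 46 bases in capitals, 8527 to 8572, also belong to MT-ATP6 at chrM:8527-9207.
MT-ATP8: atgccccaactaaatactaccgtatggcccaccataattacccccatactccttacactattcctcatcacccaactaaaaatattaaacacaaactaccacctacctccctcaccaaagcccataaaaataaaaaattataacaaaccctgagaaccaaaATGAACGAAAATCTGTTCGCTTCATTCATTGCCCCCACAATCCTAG
Reads over the shared bases cannot be told apart between both genes, since the handling of overlapping genes is not given in the sources used here.

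MT-ATP8 had 1564, 1479, 1525 and 1775 CPM in whole cells of prefixes 1A, 1B, 2B and 2C, against 989.5, 762, 1009.7 and 1494 CPM rebuilt. Every prefix was above its rebuilt level, and all whole-cell values but 1479 exceeded all rebuilt ones. The log2 ratio was 0.64 ± 0.08 (SE, edgeR adjusted p = 0.000958). MT-ATP6 had 3168, 2898, 2880.2 and 3736 CPM in whole cells, against 2361, 1709, 2002 and 2884 CPM rebuilt, again higher in each prefix. Its log2 ratio was 0.53 ± 0.07 (SE, edgeR adjusted p = 0.000958). Both were also called on gene-body counts, with log2 ratios of 0.66 and 0.55 and an adjusted p of 0.0179 each from edgeR. MTATP6P1, a nuclear copy of MT-ATP6 named after its value was seen, was called above on exons but not on gene bodies. It stood at 0.41 ± 0.09 (SE, edgeR adjusted p = 0.0455) on exons. Of its 50-base stretches 46.68% are also found in MT-ATP6, so their reads may be shared.

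No other mitochondrial mRNA was called. MT-CO1, a subunit of cytochrome oxidase encoded upstream on the same strand, had 7737, 8395, 8143 and 8446 CPM in whole cells, against 9862, 8449, 8359.8 and 10051 CPM rebuilt. Its log2 ratio was -0.15 ± 0.07 (SE, edgeR adjusted p = 0.427), with all 4 prefixes below. MT-CO3, whose coding sequence follows MT-ATP6, had a fitted log2 ratio of 0.07 with values above in 1A and 1B and below in 2B and 2C. MT-ND3, a small subunit of complex I, had the lowest fitted log2 ratio of the group, -0.31. The median log2 ratio of the 13 was 0.10, and by prefix it was -0.105, 0.288, 0.323 and -0.165, so 1B and 2B lay above and 1A and 2C below. Without the wash in the mixture 7 of the 13 (53.8%) lay above in all 4 prefixes, against 9.12% of all genes. With the wash 2 (15.4%) did, against 9.75% of all genes.

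MT-TL1, a mitochondrial leucine tRNA, was called above at 3.29 CPM in whole cells and 1.16 CPM rebuilt, a log2 ratio of 1.40 ± 0.30 (SE, edgeR adjusted p = 0.0434). It was the only called member of 19 tested mitochondrial tRNAs, against 0.439% of all genes called above. The median log2 ratio of the 19 was -0.33.

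Protein-coding genes called above were low in GC content on the whole and had a larger median length. The 41 called above had a median GC content of 39.72% and a median exon length of 6741 bases, against 47.73% and 5137 bases over all 11305 protein-coding genes with an annotation. Of the 41, 25 fell in the lowest of 5 equal bins of genes by GC content, 30.24 to 40.5%. Equal bins by exon length, from short to long, held 9, 3, 4, 12 and 13 of them, so the shortest genes were also among them. The median SD of the 4 log2 ratios fell from 0.295 in the shortest bin to 0.173 in the longest. Whether this spread shaped the calls was not tested. In 24 of the 41 the nucleus was the highest of the 3 fractions, in 15 the cytoplasm and in 2 the wash, against 52.7, 34.3 and 13% of all protein-coding genes.

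Mitotic genes lay above their rebuilt level more often than below. Of 29 tested members, 3 were called above and 0 below, and 12 (41.4%) lay above in all 4 prefixes with no test, against 0.439% and 9.75% of all genes. With the spike-in weights 7 (24.1%) lay above in all 4, against 9.32% of all genes, and on gene bodies 7 did, against 9.29%. CENPF, a kinetochore protein of dividing cells, had 738, 645, 607 and 619 CPM in whole cells of prefixes 1A, 1B, 2B and 2C, against 535, 537, 416 and 443 CPM rebuilt. All whole-cell values were above all rebuilt ones, and the log2 ratio was 0.44 ± 0.07 (SE, edgeR adjusted p = 0.00474). The nucleus held 1129, 1234, 734 and 844 CPM of it and the cytoplasm 292, 258, 309 and 337 CPM. The other called members, named after their values were seen, were the topoisomerase TOP2A at 0.36 ± 0.06 (SE, edgeR adjusted p = 0.0103) and the kinetochore motor CENPE at 0.32 ± 0.07 (SE, edgeR adjusted p = 0.0452). The spindle kinases and motors TTK and KIF11 had log2 ratios of 0.28 and 0.25 and were not called. The median log2 ratio of the group was only 0.05, and TPX2, KIF20A and ANLN lay below in all 4 prefixes.

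Nuclear pore mRNAs held a pair of called genes. RANBP2, the large protein of the cytoplasmic filaments of the pore, had 595, 646, 499.7 and 453 CPM in whole cells, against 505, 503, 357 and 315 CPM rebuilt. Each prefix was above its rebuilt level, although values of different prefixes overlapped. The log2 ratio was 0.41 ± 0.07 (SE, edgeR adjusted p = 0.00806). TPR, which forms the nuclear basket of the pore and was named after its value was seen, stood at 0.40 ± 0.07 (SE, edgeR adjusted p = 0.00806). Of 36 tested lamina and pore mRNAs, 2 were called above and 0 below, against 0.439% and 0.069% of all genes, and the median log2 ratio was -0.003.

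STAG2, a subunit of cohesin, was among the few abundant mRNAs that lay above all 3 of its fractions. It had 639, 698, 787 and 759 CPM in whole cells, whereas cytoplasm held 608, 597, 623 and 662 CPM, the wash 484, 605, 401 and 394 CPM and the nucleus 517, 581, 526 and 545 CPM. No non-negative weights that sum to 1 can return such a gene, whatever the fit. Its log2 ratio was 0.35 ± 0.07 (SE, edgeR adjusted p = 0.0244).

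CCDC73 showed the widest gap of this kind among genes of at least 10 CPM. It had 57.3, 63.6, 63.4 and 65.5 CPM in whole cells of prefixes 1A, 1B, 2B and 2C, against 39.0, 42.5, 38.3 and 47.6 CPM rebuilt. Its highest fraction, the cytoplasm, held 48.0, 49.9, 52.1 and 59.2 CPM. The whole-cell values were nearly equal over prefixes and all above every rebuilt value. The log2 ratio was 0.59 ± 0.08 (SE, edgeR adjusted p = 0.00248), and it was called on gene-body counts too, at 0.52. CCDC73 has 30.88% GC and overlaps EIF3M, a subunit of translation initiation factor 3, in the annotation, so their reads may be shared.

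In all, 25 genes (0.157%) lay above and 8 (0.0502%) below all 3 fractions in all 4 prefixes by exon counts, and 9 (0.0529%) and 11 (0.0646%) by gene-body counts. Of the 25, 10 were also called by the test. DDX1, an RNA helicase, was above its fractions without passing the test, at 0.27 ± 0.07 (SE, edgeR adjusted p = 0.0834). AC009118.3, an RNA annotated antisense to the deadenylase scaffold CNOT1, was above them at 0.60 ± 0.12 (SE, edgeR adjusted p = 0.0244). On the lower side, ASAH1, the lysosomal acid ceramidase, had 59.6, 66.4, 69.7 and 60.5 CPM in whole cells, below all of its fractions in each prefix, and was not called at -0.21 ± 0.09 (SE, edgeR adjusted p = 0.351). AC145285.6, annotated antisense to ATXN2L, did likewise at -0.46 ± 0.18 (SE, edgeR adjusted p = 0.314).

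HSP90AA1, the stress-inducible cytosolic Hsp90 chaperone, was the most abundant called mRNA of the nuclear genome. It had 3495, 3045, 2453 and 2461 CPM in whole cells, against 2818, 2348, 1711 and 1959 CPM rebuilt. Each prefix was higher, by log2 ratios of 0.31, 0.38, 0.52 and 0.33. The fitted log2 ratio was 0.39 ± 0.06 (SE, edgeR adjusted p = 0.00806), and gene-body counts gave 0.40 and a call. It was the only member called among 29 chaperone, actin and tubulin mRNAs, against 0.439% of all genes called above. Of the 29, 6 (20.7%) lay above in all 4 prefixes and 5 (17.2%) below, against 9.75% and 8.93% of all genes.

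Processed pseudogenes, copies of mRNAs that were inserted back into the genome, were well represented among the genes above. They made up 989 of the 15940 genes tested, and supplied 16 of the 70 calls above and 0 of those below. Over all genes, 0.439% were called above and 0.069% below. Of the 989, 137 (13.9%) lay above in all 4 prefixes and 52 (5.26%) below, against 9.75% and 8.93% of all genes. Their median log2 ratio was 0.18 against 0.02 for all genes. The medians by prefix were 0.317, 0.122, 0.013 and 0.135, so the excess was largest in 1A and nearly absent in 2B. Of the 16 called, 13 had their highest ratio in 1A and 13 their lowest in 2B. For 13 of the 16 a parent gene was found by name, 11 genes in all, and only 1 of the parents was called, HSP90AA1. Parents' log2 ratios ran between -0.288 and 0.386, those of the 16 pseudogenes between 0.524 and 1.772.

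HSP90AA2P, a processed copy of HSP90AA1 at chr11:27888838-27891033, had 42.8, 27.5, 19.9 and 21.0 CPM in whole cells, against 17.7, 16.3, 14.8 and 15.9 CPM rebuilt. It lay above all 3 fractions in each prefix, with a log2 ratio of 0.74 ± 0.13 (SE, edgeR adjusted p = 0.00806). HSP90AA3P, another copy of the same mRNA, had 31.0, 17.3, 8.83 and 21.7 CPM in whole cells, against 8.32, 9.74, 8.46 and 9.94 CPM rebuilt, with almost no difference in 2B. MTND4P12, a nuclear copy of mitochondrial MT-ND4, had 126, 66.2, 51.0 and 101 CPM in whole cells, against 40.9, 37.5, 44.8 and 76.6 CPM rebuilt. RPL3P2, a copy of the ribosomal protein gene RPL3 that lies in HLA-B, stood highest of the called pseudogenes of at least 10 CPM at 1.21 ± 0.24 (SE, edgeR adjusted p = 0.0244). EEF1A1P9, a copy of elongation factor EEF1A1, and HNRNPCP3, a copy of the RNA-binding HNRNPC, stood at 0.81 ± 0.18 (SE, edgeR adjusted p = 0.0455) and 0.73 ± 0.17 (SE, edgeR adjusted p = 0.0488). Counts of pseudogenes are uncertain, because reads can be split with the parent gene and the handling of such reads is not given in the sources used here. The share of a copy's 50-base stretches found in the longest parent transcript was 20.31% for HSP90AA2P and 3.45% for HSP90AA3P. It was 3.46% for MTND4P12, 13.6% for RPL3P2, 17.54% for EEF1A1P9 and 10.17% for HNRNPCP3. Among the other called copies it reached 85.07%, in EEF1A1P5. How this sharing affects the ratios was not tested.

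RNY1, a Y RNA that binds the Ro60 protein in the cytoplasm, was called above among 6 tested small cytoplasmic and processing RNAs. It was the only one of them called, against 0.439% of all genes called above. It had 7.26, 7.58, 7.69 and 15.0 CPM in whole cells of prefixes 1A, 1B, 2B and 2C, against 1.75, 1.83, 5.85 and 7.30 CPM rebuilt. The log2 ratio was 1.31 ± 0.22 (SE, edgeR adjusted p = 0.00806), at a level of few counts in the fractions. RNY3 and RNY4, 2 other Y RNAs, had log2 ratios of 0.43 and 0.86 and lay below their rebuilt level in 2B, and neither was called.

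Ribosomal protein mRNAs were called in both directions. Of 85 tested, 2 were called above and 1 below, against 0.439% and 0.069% of all genes. In all 4 prefixes 5 (5.88%) lay above and 15 (17.6%) below, against 9.75% and 8.93% of all genes, and the median log2 ratio was -0.05. RPL26, a protein of the large subunit, had 61.1, 43.9, 30.6 and 39.5 CPM in whole cells, against 22.6, 24.8, 28.7 and 29.3 CPM rebuilt, a log2 ratio of 0.73 ± 0.14 (SE, edgeR adjusted p = 0.0177). RPL39, named after its value was seen, stood at 0.50 ± 0.08 (SE, edgeR adjusted p = 0.00806). RPLP2, of the acidic stalk, had 286, 249.6, 215 and 195 CPM in whole cells, against 406, 309, 253 and 407 CPM rebuilt, a log2 ratio of -0.49 ± 0.10 (SE, edgeR adjusted p = 0.0332). The excess of RPL26 was largest in 1A and the deficit of RPLP2 largest in 2C. RPLP0, of the same stalk, was not called at -0.19 ± 0.07 (SE, edgeR adjusted p = 0.308).

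Translation factors lay above more often than below. Of 37 tested, 7 (18.9%) lay above and 0 below in all 4 prefixes, against 9.75% and 8.93% of all genes, 1 was called above, against 0.439% of all genes, and the median log2 ratio was 0.09, with prefix medians between 0.052 and 0.088. EIF5B, which joins the ribosomal subunits, had 600.0, 474, 381 and 433 CPM in whole cells, against 451, 421, 291 and 331 CPM rebuilt, a log2 ratio of 0.34 ± 0.07 (SE, edgeR adjusted p = 0.0244). EIF3M and EIF3A, subunits of initiation factor 3, had log2 ratios of 0.29 and 0.23 and were not called. After the GC correction 10 (27%) lay above and 5 (13.5%) below, against 10.8% and 10.5% of all genes. With the spike-in weights 4 (10.8%) lay above and 1 (2.7%) below, against 9.32% and 8.62% of all genes. The share above was thus close to that of all genes with the spike-in weights. With the spike-in weights the median of the group, as the mean of the 4 log2 ratios per gene, was 0.01, against 0.08 with the fitted ones.

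Several called genes belonged to no such group. TMA7 had 79.9, 47.4, 35.5 and 61.9 CPM in whole cells, against 39.7, 36.1, 32.8 and 36.6 CPM rebuilt, and stood at 0.59 ± 0.11 (SE, edgeR adjusted p = 0.0146). NEIL1, a DNA glycosylase of base excision repair, had 12.2, 9.97, 12.6 and 13.3 CPM in whole cells, against 5.54, 6.80, 9.86 and 7.21 CPM rebuilt. Its log2 ratio was 0.70 ± 0.15 (SE, edgeR adjusted p = 0.0415), and its mRNA was mostly nuclear, with 19.2, 21.5, 25.7 and 20.4 CPM in the nucleus. LINC01203, a long intergenic RNA with 23.5, 21.1, 20.1 and 16.7 CPM in the nucleus, stood at 0.75 ± 0.16 (SE, edgeR adjusted p = 0.0355). ZNF480, of the zinc finger genes, stood at 0.38 ± 0.08 (SE, edgeR adjusted p = 0.044). It was 1 of 2 called among the 379 tested zinc finger mRNAs, against 0.439% of all genes called above. The median log2 ratio of the 379 was 0.02.

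**Figure D3:**
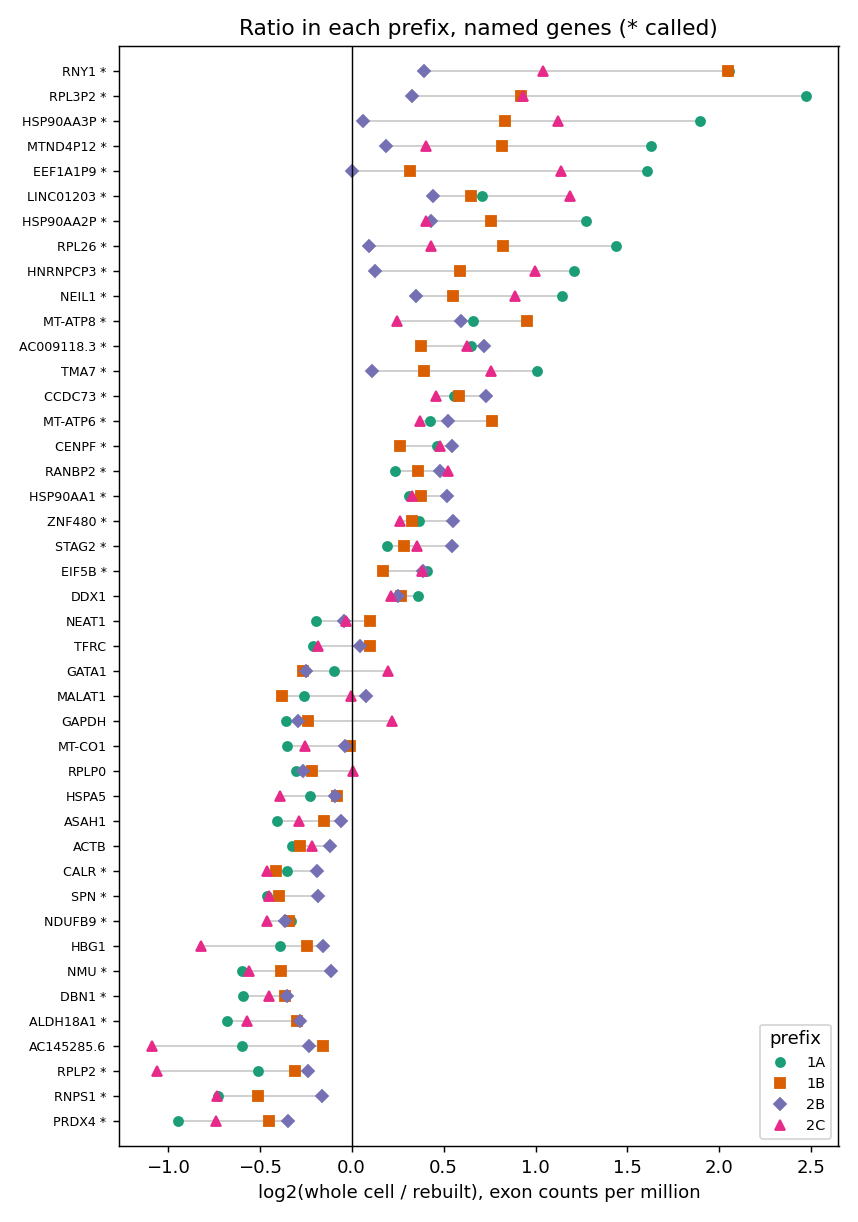
log2 ratio of whole cell over rebuilt exon CPM (horizontal) in each of the 4 prefixes for the named genes, ordered by their fitted ratio, with called genes starred and a line at no difference. Called genes have all 4 prefixes on one side, and the spread between prefixes is widest for low-level pseudogenes, as for RPL3P2 between 0.33 and 2.47.

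The 11 genes below their rebuilt level had a different profile. In 7 of them the nuclear wash was the highest of the 3 fractions, against 13% of all protein-coding genes. A gene that is high in the wash is also the gene whose rebuilt level depends most on the fitted wash weight, so this share is a description and not an independent test. The highest of 5 equal bins of protein-coding genes by wash over cytoplasm had a median log2 ratio of -0.06, with 4 genes called above and 7 below, and all 4 prefix medians of that bin were below 0.

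PRDX4, a peroxiredoxin of the secretory pathway, had 27.1, 31.5, 27.1 and 24.1 CPM in whole cells of prefixes 1A, 1B, 2B and 2C, against 52.1, 42.9, 34.5 and 40.1 CPM rebuilt. All whole-cell values were below all rebuilt ones. The log2 ratio was -0.59 ± 0.12 (SE, edgeR adjusted p = 0.0254), and the wash held 83.8, 67.5, 68.8 and 66.0 CPM. CALR, the chaperone calreticulin of the endoplasmic reticulum, had 801, 628, 585 and 689 CPM in whole cells, against 1022, 834, 667 and 947 CPM rebuilt. Its log2 ratio was -0.35 ± 0.07 (SE, edgeR adjusted p = 0.0354), and the wash held 2334, 2078, 2459 and 2049.7 CPM against 671, 731, 521 and 573 CPM in the cytoplasm. SPN, the surface sialoglycoprotein CD43, had 207, 202, 202 and 225 CPM in whole cells, against 284, 266, 229 and 307 CPM rebuilt, a log2 ratio of -0.36 ± 0.08 (SE, edgeR adjusted p = 0.0366).

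ALDH18A1, a mitochondrial enzyme of proline synthesis, and DBN1, the actin-binding protein drebrin, were also highest in the wash. Their log2 ratios were -0.44 ± 0.09 (SE, edgeR adjusted p = 0.0355) and -0.43 ± 0.09 (SE, edgeR adjusted p = 0.0244). When the wash was left out of the mixture, the log2 ratios of CALR, SPN, ALDH18A1 and DBN1 turned to 0.19, 0.08, 0.06 and 0.32. The direction of these 4 genes thus depended on the wash being part of the sum. NMU, the precursor of neuromedin U, stood at -0.40 ± 0.09 (SE, edgeR adjusted p = 0.0434).

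Without the wash RNPS1 stood at -0.56 and was still called, whereas NDUFB9 stood at -0.12 and was no longer called. RNPS1, a splicing factor bound to exon junctions, had 248, 261, 299 and 217 CPM in whole cells, against 409.7, 372, 334 and 361 CPM rebuilt, with its highest values of 558, 495, 448 and 462 CPM in the cytoplasm. Its log2 ratio was -0.51 ± 0.09 (SE, edgeR adjusted p = 0.0103). NDUFB9, a subunit of complex I, had 248, 204, 236 and 292 CPM in whole cells, against 312, 258, 303 and 403 CPM rebuilt. The ratios of NDUFB9 were nearly equal in all prefixes, at -0.33, -0.34, -0.36 and -0.46, and the fitted one was -0.37 ± 0.07 (SE, edgeR adjusted p = 0.0244). COX5B, a subunit of cytochrome oxidase named after its value was seen, stood at -0.36 ± 0.08 (SE, edgeR adjusted p = 0.0452). NDUFB9 and COX5B were the only 2 called of 75 nuclear genes for oxidative phosphorylation, against 0.069% of all genes called below. Of the 75, 13 (17.3%) lay below in all 4 prefixes and 3 (4%) above, against 8.93% and 9.75% of all genes. Their median log2 ratio was 0.01. The remaining gene, ENSG00000255125, has no entry in the annotation used and stood at -0.72 ± 0.12 (SE, edgeR adjusted p = 0.00806). On gene-body counts its log2 ratio was 0.08 and it was not called.

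mRNAs for secretory and membrane proteins lay below more often than above, as CALR did. Of 49 mRNAs for proteins of the endoplasmic reticulum, 19 (38.8%) lay below in all 4 prefixes and 0 above, against 8.93% and 9.75% of all genes. Their median log2 ratio was -0.15, and its values by prefix were -0.203, -0.102, -0.037 and -0.225. Only CALR was called. HSPA5, the chaperone BiP, had 424, 362, 455 and 472 CPM in whole cells, against 496, 383, 484 and 618 CPM rebuilt, a log2 ratio of -0.19 ± 0.07 (SE, edgeR adjusted p = 0.309). SEC61A1, of the translocation channel, and RPN2, of the oligosaccharyl transferase, both had a log2 ratio of -0.28 and were not called. Of 39 mRNAs for plasma membrane and lysosomal proteins, 12 (30.8%) lay below in all 4 prefixes and 0 above, with a median of -0.12. Without the wash in the mixture both groups changed sides, with 14 and 11 members above in all 4 prefixes, 4 and 0 below, and medians of 0.09 and 0.16. In that setting 9.12% of all genes lay above and 8.18% below. With spike-in weights the medians were -0.06 and 0.02.

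Replication-dependent histone mRNAs, which end in a stem loop and carry no poly(A) tail, lay below more often than above. Of 54 tested, 17 (31.5%) were below in all 4 prefixes and 2 (3.7%) above, against 8.93% and 9.75% of all genes, 0 were called, and the median log2 ratio was -0.13. The prefix medians were -0.034, -0.136, -0.259 and -0.08. H2BC12 and H4C9 had fitted log2 ratios of -0.29 and -0.31. The median stayed below 0 in each of the 6 other settings tried for groups, between -0.213 and -0.135.

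Host genes of small nucleolar RNAs had 6 of 24 (25%) below and 0 above in all 4 prefixes, against 8.93% and 9.75% of all genes, with a median of -0.14 and 0 called. SNHG17 had a log2 ratio of -0.24. The small nucleolar and Cajal body RNAs themselves had 13 of 80 below and 1 above, set against the same shares of all genes, 0 called, and a median of -0.24. Their medians by prefix were 0.114, -0.302, -0.932 and -0.373. Spliceosomal small nuclear RNAs spread even more, with prefix medians of 0.752, -0.07, -1.101 and -0.921 over 10 tested genes and 0 called. Both kinds of small structured RNA thus stood above the mixture in 1A and below it in the other prefixes. The one gene 2-fold below in all 4 prefixes, SCARNA8, is of this class. It had 0.764, 0.598, 0.981 and 0.953 CPM in whole cells, against 1.54, 1.46, 2.52 and 2.53 CPM rebuilt, and did not pass the test at -1.31 ± 0.44 (SE, edgeR adjusted p = 0.21).

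Several other groups had medians near that of the typical gene. Erythroid and globin mRNAs had 2 of 34 above and 2 below in all 4 prefixes, 5.88% each, against 9.75% and 8.93% of all genes. They had 0 called on exons, 1 called above on gene bodies, against 0.112% of all genes, and a median of -0.02 on exons. Large cytoskeletal scaffold mRNAs had 5 of 24 (20.8%) on each side, with 1 called below, against 0.069% of all genes, and a median of 0.05. With the spike-in weights 12 (50%) of them lay above, against 9.32% of all genes. Intron-retaining mRNAs of RNA-binding and speckle proteins had 9 of 41 (22%) below and 3 (7.32%) above, with 0 called and a median of -0.03. Glycolytic enzymes had a median of -0.02, immediate early and heat shock genes -0.01, and nuclear long noncoding RNAs 0.01, each with 0 called. Mitotic mRNAs kept a median above 0 in each of the 6 other settings, between 0.031 and 0.077, and processed pseudogenes between 0.088 and 0.18.

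**Figure D4:**
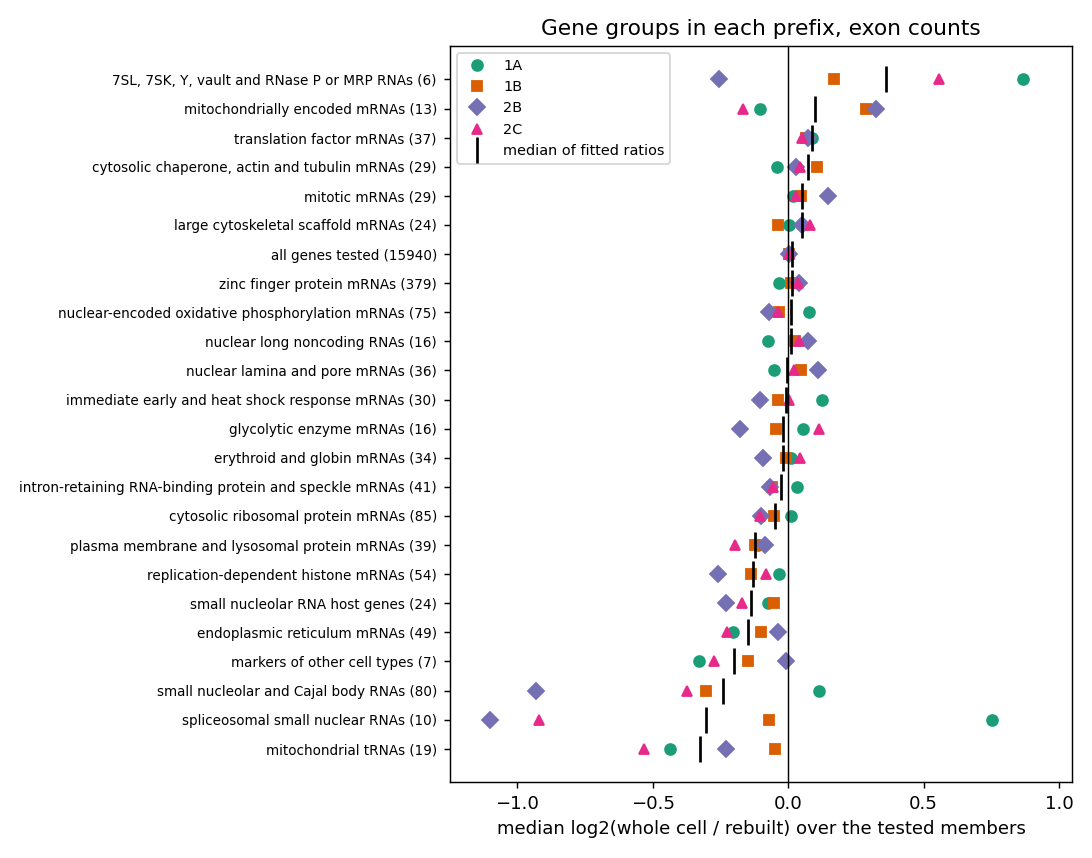
Median log2 ratio of whole cell over rebuilt exon CPM (horizontal) of each gene group in each prefix, with the number of tested members in brackets and a bar at the median of the fitted ratios. Small structured RNAs spread from -1.101 to 0.866 between prefixes, while endoplasmic reticulum and plasma membrane mRNAs lie below 0 in all 4.

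GC content followed the ratios in opposite directions in different prefixes. Across 11305 protein-coding genes, Spearman's rho of the log2 ratio with GC content was 0.199 in 1A, -0.29 in 1B, -0.48 in 2B and 0.251 in 2C. The lowest of the 5 bins by GC content had medians of -0.059, 0.098, 0.198 and -0.066, and the highest had 0.124, -0.099, -0.162 and 0.144. The prefixes split as they did for the wash weight of the main fit, with 1A and 2C on one side and 1B and 2B on the other. Exon wash weights from least squares, Poisson or spike-ins did not split in this way, with 2C under 1B in each. Exon length was less related, with rho of -0.026, 0.098, 0.18 and 0.067. After the smooth trend on GC content was taken out of each prefix, an alternative chosen after seeing the data, 82 genes were called above and 28 below, including 63 of the 70 and 10 of the 11.

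**Figure D5:**
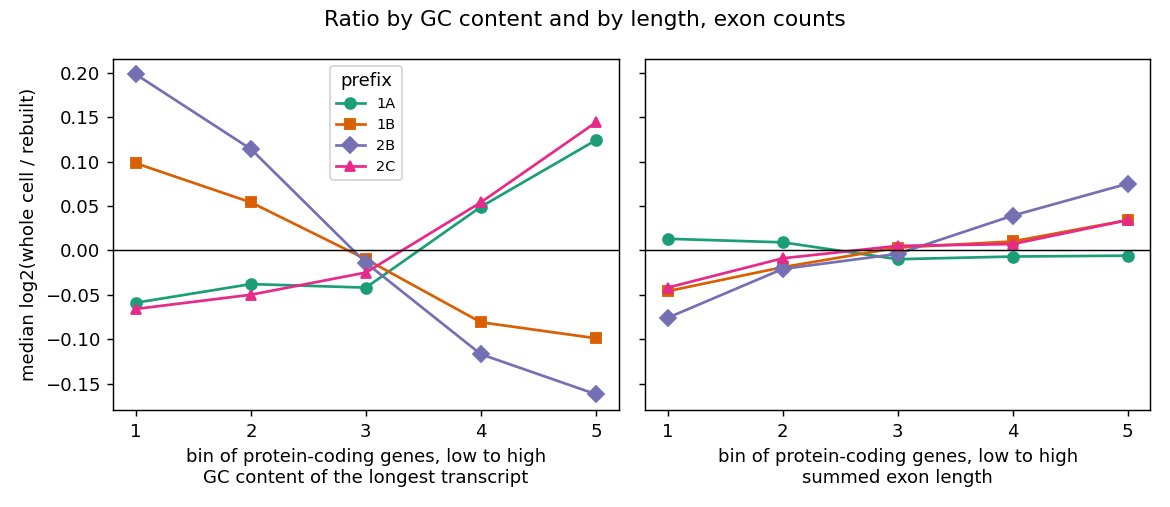
Median log2 ratio of whole cell over rebuilt exon CPM (vertical) in 5 equal bins of protein-coding genes ordered by GC content (left) or exon length (right), one line per prefix. In the bin with the highest GC content the medians are 0.124 and 0.144 in 1A and 2C, and -0.099 and -0.162 in 1B and 2B.

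Gene-body counts, which include introns, gave fewer calls. The same test called 19 genes above (0.112%) and 0 below (0%) of 17015, with 1780 at an unadjusted p under 0.05, and DESeq2 called 81 above and 12 below. Limma called 0 genes, with 914 at an unadjusted p under 0.05. Leaving out 1A, 1B, 2B and 2C in turn gave 73, 0, 135 and 1 above and 8, 0, 44 and 0 below. Of the 19, 17 were also called on exons. Of the 70 exon genes above, 61 were tested on gene bodies and 59 of these lay above in all 4 prefixes, as did 9.29% of all genes. Of the 11 below, 10 were tested and 8 lay below in all 4, as did 8.87% of all genes. The calls chose these members on reads that gene bodies share, so the shares are a description. In 6055 genes the gene-body count was under the exon count in at least 1 library, and the cause was not tested.

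The share of intronic RNA in whole cells was close to that of the mixture. Intronic counts made up 48.2, 53.7, 53.1 and 46.3% of the gene-body counts of nuclear-encoded genes in whole cells, against 50.1, 53.6, 52 and 47.1% in the mixture with exon weights. The means were 50.3 ± 3.66% and 50.7 ± 2.82% (SD, n = 4 each), a difference of -0.353 ± 1.26 percentage points (SD of 4 pairs). The exact paired permutation test, two-sided, gave p = 0.75, and 4 pairs cannot give less than 1 in 8. The fractions themselves ranged widely, from 15.2 to 17.8% in the cytoplasm and 25.1 to 32% in the wash to 70.7 to 74.8% in the nucleus.

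The ratio was also compared between column prefixes 2 and 1. Of 15940 genes, 2 (0.0125%) differed by edgeR's adjusted p on exons, with 506 at an unadjusted p under 0.05, and 2 (0.0118%) of 17015 on gene bodies. None of the 81 called genes was among them.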

How the data were processed

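RNA of K562 whole cells, cytoplasm, nuclear wash and nucleus was extracted with Trizol LS, yeast spike-ins were added and libraries were made with a SMARTer stranded total RNA kit, per the labels' protocols. The authors deposited raw read counts per gene over exons and over gene bodies, without normalization. The tools in the submitters' processing notes are STAR 2.7.0a, cutadapt 2.5 and featureCounts 1.6.2, with the build hg38. Not given in the sources used here are the annotation release, the strand setting and the handling of shared reads. Symbols, types, positions, lengths and GC content came from GENCODE release 29 on GRCh38, where 57447 of 58051 identifiers were found.

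Counts were scaled to CPM per library without the spike-ins. For each prefix, non-negative weights of the 3 fractions were fitted that minimise the sum over genes of the absolute log2 ratio of observed to rebuilt CPM. Low genes were removed by filterByExpr, given the groups. Whole-cell counts entered edgeR's quasi-likelihood test (edgeR 4.0.16, R 4.3.3) with an intercept only and the log rebuilt count as offset. The rebuilt value was not allowed below the weighted sum of 0.5 counts in each fraction library. In the ratio of a single prefix, a whole-cell count of 0 was set to 0.5 counts. The p-values were adjusted by Benjamini-Hochberg over all genes tested. The F test of the intercept was computed from the edgeR fit, since glmQLFTest needs 2 columns, and was tested on simulated data. Intervals and SEs cover the spread between 4 prefixes and counting error only, since no molecular identifiers are stated.

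The same numbers pair the samples: deviations of same-prefix libraries from their group means correlated with whole cell at 0.113 to 0.387 in all 3 fractions, although in 6 of 12 comparisons the library of another prefix correlated better, and the prefix is built into the offset. Alternatives used limma 3.58.1, DESeq2 1.42.0, other weights, scalings and filters, and each prefix left out. Genes, 24 lists and tests were chosen with earlier results of these data known. Genes named are the 8 with the largest ratio in each direction among called genes of at least 10 CPM, the 4 largest on gene bodies, per list the called member with the largest ratio at 5 CPM or more, the 4 farthest outside all 3 fractions in each direction, and 10 landmarks.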

Additional observations from a re-analysis of the deposited data

Results flagged for a closer look

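MTRNR2L1, a nuclear gene at chr17:22523111-22524663 that closely resembles the mitochondrial 16S rRNA, had ratios that differed between column prefixes. It had 209, 88.5, 69.7 and 122 CPM in whole cells of prefixes 1A, 1B, 2B and 2C, against 48.8, 49.9, 79.1 and 114 CPM rebuilt. The log2 ratio in prefix 2 minus that in prefix 1 was -1.61 (edgeR adjusted p = 0.0125), and -1.56 on gene-body counts (edgeR adjusted p = 0.0187). Both libraries of prefix 1 lay above the rebuilt level. MIR3648-1, a microRNA gene on chromosome 21, had 19.5, 20.7, 25.5 and 4.76 CPM in whole cells, against 9.53, 5.90, 26.0 and 16.3 CPM rebuilt, a log2 difference of -2.03, again prefix 2 minus prefix 1 (edgeR adjusted p = 0.0459). C10orf53 on chromosome 10 had 20.1, 2.03, 1.58 and 4.50 CPM over gene bodies in whole cells, against 0.793, 0.646, 1.96 and 4.23 CPM rebuilt. The difference was -3.82 (edgeR adjusted p = 0.0187), and the whole-cell library of 1A stood apart.

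EIF5B had log2 ratios of 0.41, 0.17, 0.39 and 0.39, and the value of 0.17 in prefix 1B lay far from the other 3 by Dixon's criterion. About 1 in 20 groups is marked in this way by chance, and 1 of the groups examined for the named genes was.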

How the results depend on the processing

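The counts of genes called depended on most choices, although few directions of the called genes did. On exons, where 70 genes were above and 11 below, DESeq2 called 117 and 32, least squares weights 33 and 3, Poisson weights 36 above, weights summing to 1 29 above, centred spike-in weights 44 above, and a mixture without the wash 46 and 7. No filter on low counts gave 222 and 63, a mean of at least 10 counts 38 and 6, and the correction for GC content 28 below. Leaving out one prefix gave 0 to 211 above and 0 to 98 below. On gene bodies, where 19 were above and 0 below, DESeq2 called 81 and 12, least squares weights 82 and 12, Poisson weights 11 and 8, weights summing to 1 11 and 2, centred spike-in weights 0 above, a mixture without the wash 30 and 2, no filter 216 and 59, and the GC correction 33 and 2. Leaving out one prefix gave 0 to 135 above and 0 to 44 below.

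The replicate block is part of the main fit, which pairs libraries of one prefix. Limma called 0 genes in both tables with the replicate block, 0 without it, and 0 with the block and the GC correction. The difference in intronic share was -0.353 points whether prefixes were paired or not, with exact p-values of 0.75 and 0.886. As limma made no call in either form, these counts do not show what the pairing does to calls. At an unadjusted p under 0.05 limma had 952 genes with the replicate block and 880 without it on exons, and 914 and 428 on gene bodies.

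The mean mixture weight of cytoplasm exon counts, 0.541, became 0.581 by least squares, 0.57 by Poisson, 0.504 from spike-ins, 0.659 without the wash, 0.514 without mitochondrial and rRNA genes, 0.53 without a filter and 0.335 on gene bodies. The wash weight of 0.166 became 0.0587 from spike-ins. The nucleus weight of 0.279 became 0.213 from spike-ins, 0.323 without mitochondrial and rRNA genes and 0.525 on gene bodies. Genes above all 3 fractions numbered 25 on exons and 9 on gene bodies, and 52 to 122 without one prefix, and genes below them 8, and 29 to 46 without one prefix, where fewer prefixes had to share a side. The 2 genes that differed between prefixes on exons became 0 with least squares weights.

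Of the values of named genes recomputed under these settings, 264 lost the threshold, 8 gained it and 4 reversed. A reversal was counted only for a gene called in the main fit or in the other setting. The remaining 617 kept their side of the threshold, and changes of direction of genes called in neither setting are not told apart among them. All 4 reversals came from leaving the wash out, with ALDH18A1 at 0.06, DBN1 at 0.322, SPN at 0.081 and CALR at 0.189. The cause was not tested. The nucleus libraries, at 1373755 to 2643131 exon counts, limit the precision of the rebuilt level of nuclear transcripts.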

Other observations

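The largest called ratios belonged to genes of few counts. PPIAP41, a pseudogene of cyclophilin A, had a fitted log2 ratio of 1.77 at 2.23 CPM in whole cells and 0.814 CPM rebuilt, and RNU6-1188P, annotated as a U6 RNA copy, had 1.77 at 2.09 and 0.713 CPM. In all, 13 of the 81 called genes were under 10 CPM both in whole cells and rebuilt.

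Other called genes are given here as single values, chosen after those were seen. PDS5A, a regulator of cohesin, stood at 0.31 ± 0.07 (SE, edgeR adjusted p = 0.0448), ESCO1, which acetylates cohesin, at 0.33 ± 0.07 (SE, edgeR adjusted p = 0.046), and TOP2B, the second topoisomerase II, at 0.35 ± 0.07 (SE, edgeR adjusted p = 0.0295). SKIC3, a subunit of the complex that feeds RNA to the cytoplasmic exosome, stood at 0.44 ± 0.07 (SE, edgeR adjusted p = 0.00806).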
